A study of Homo sapiens with 6 samples.

Results

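PPARA, PPARD and PPARG encode the peroxisome proliferator-activated receptors, and they were examined here with RXRA, which encodes their dimer partner retinoid X receptor alpha, and with the fatty acid target genes CPT1A, PDK4, ANGPTL4 and PLIN2. These 8 genes, of 18132 genes named on the array, were chosen with results of the same comparison known: the brightest PPARA probe set had one of the smallest p-values among genes higher after PRMT5 lowering, and the other 7 genes were added for their known relation to PPARA. All their probe sets were taken by gene symbol, which gave 23 of 49293 probe sets. Levels and differences of these genes are therefore descriptions of 6 arrays, with no test.

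The samples are labelled as NCI-H929, an established line from a human multiple myeloma, and each was hybridised to 1 Affymetrix array. In the 3 PRMT5_down samples the lentivirus was one that lowers PRMT5, which makes most symmetric dimethylarginine in cells. The titles call this agent a sponge, and the treatment protocol calls it a short hairpin RNA in a pLKO.1 vector. The 3 control samples carried a control lentivirus, and puromycin selection and the time of collection are described for the cells as a whole. The study asked which genes may be targets of PRMT5. The values are log2 signals, so a difference of 1 is a doubling, and a probe set was taken as above background on an array when it exceeded the 95th percentile of 333 olfactory receptor genes there, a level of 4.89 to 5.01.

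The label was checked against marker genes. Of 10 plasma cell markers 3 exceeded background on every one of the 6 arrays, and 6 did so on none: IRF4, CD38, TNFRSF17, MZB1, POU2AF1 and SLAMF7. All 7 erythroid markers measured were above background on all 6 arrays. The mean signal over these 7 was 9.12 to 9.49 in PRMT5_down arrays, against 8.69 to 8.96 in control arrays, with 7 of 7 higher. Over the 10 plasma cell markers it was 4.43 to 4.51 in PRMT5_down, against 4.45 to 4.59 in control, with 10 of 10 lower. These 10 differences ran from -0.01 for POU2AF1 to -0.24 for SDC1, and 6 of the genes exceeded background on no array. Beside both counts, 43.3% of all 18132 genes had a positive difference. Of 5 adipocyte markers, PLIN1, FABP4, LEP and CIDEC were above background on no array, and ADIPOQ was above it on all 6. Of 5 hepatocyte markers, ALB, TTR, SERPINA1 and CYP3A4 were above background on no array, and APOA1 was above it on 4. The part of these cell markers in the differences below was not tested, and in bulk RNA fewer cells of a type and less RNA per cell cannot be told apart. PRMT5 itself had 8.63, 9.65 and 9.37 in PRMT5_down replicates 1, 2 and 3, against 9.93, 10.35 and 10.30 in the controls.

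The 3 receptors are ligand-activated transcription factors. They bind DNA as dimers with an RXR protein, at direct repeats of a short hexamer, and are switched on by fatty acids and their derivatives. PPARA drives fatty acid oxidation in liver, heart and muscle, PPARG drives fat cell formation, and PPARD acts broadly in oxidative metabolism. In marrow-derived cells they are better known for effects on lipid use and inflammation than for lineage identity.

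The promoters of PPARA and of the targets CPT1A and PLIN2 are shown because PPARA carried the largest differences in the set and these are the 2 targets with a positive mean difference. Each is the 250 bases before an annotated start in RefSeq (GRCh38.p14), with matches to GGGCGG on either strand, the GC box, in capitals. All 8 genes were found in the RefSeq promoter table by symbol, and for PPARA the first of 2 starts is shown.
PPARA, chr22:46150276-46150525, plus strand: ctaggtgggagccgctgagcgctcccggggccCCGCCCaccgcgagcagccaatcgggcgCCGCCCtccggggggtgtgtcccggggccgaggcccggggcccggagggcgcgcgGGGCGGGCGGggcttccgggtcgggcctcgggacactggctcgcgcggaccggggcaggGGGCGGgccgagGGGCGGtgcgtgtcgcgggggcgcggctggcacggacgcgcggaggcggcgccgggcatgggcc
CPT1A, chr11:68844278-68844527, minus strand: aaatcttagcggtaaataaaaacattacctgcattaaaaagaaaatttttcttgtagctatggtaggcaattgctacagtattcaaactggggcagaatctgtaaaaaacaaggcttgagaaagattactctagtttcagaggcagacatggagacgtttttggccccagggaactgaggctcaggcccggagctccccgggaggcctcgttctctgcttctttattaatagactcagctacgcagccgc
PLIN2, chr9:19127493-19127742, minus strand: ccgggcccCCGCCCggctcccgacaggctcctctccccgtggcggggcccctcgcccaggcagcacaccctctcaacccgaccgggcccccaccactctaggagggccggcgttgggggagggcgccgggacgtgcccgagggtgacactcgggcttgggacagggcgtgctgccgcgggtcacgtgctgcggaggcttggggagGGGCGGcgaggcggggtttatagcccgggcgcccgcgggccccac
The PPARA window was 84.4% G and C and held 6 GC boxes, some of them overlapping each other. The CPT1A window was 44.4% G and C and held 0, and the PLIN2 window was 78.0% G and C and held 2. The median over 35116 promoter windows of this length was 58.0%, and 42.6% of them held a GC box. The receptor hexamer AGGTCA was in none of the 3 printed windows on either strand, against 12.1% of all windows. Among the windows of all 8 genes, it was found in some of those of PPARG and in those of no other gene. The spaced repeat AGGTCANAGGTCA was in 6 of the 35116 windows and in none of the windows of the 8 genes. A missing match says only that these letters are not in this window.

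The groups were separate in some PPARA probe sets and overlapped in others. Of its 9 probe sets, 3 had all PRMT5_down arrays above all control arrays, with mean log2 differences of 0.59, 0.51 and 0.38, and the other 6 lay between -0.13 and 0.10. Across all 49293 probe sets, 1.49% had PRMT5_down wholly above control and 2.43% wholly below, and nothing is read from the PPARA count since the gene was chosen on this contrast. In limma, 0 of the 49293 probe sets passed an adjusted p of 0.05, or 0%, and 466 had an unadjusted p under 0.05, or 0.945%. With the replicate number as a block, limma again called 0, and 4221 had an unadjusted p under 0.05, or 8.56%. The 23 probe sets of the 8 genes were thus called in neither fit. PRMT5, the lowered gene, was called in neither fit as well, at a difference of -0.98 with groups that did not overlap. A missing call therefore does not show that a gene was unchanged.

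The brightest PPARA probe set, 11724413_s_at, had 6.67, 6.64 and 6.48 in PRMT5_down replicates 1, 2 and 3, against 6.07, 6.20 and 5.74 in control replicates 1, 2 and 3. The lowest PRMT5_down array lay above the highest control array, and control replicate 3 was the lowest of the 6. The means were 6.60 ± 0.10 in PRMT5_down and 6.00 ± 0.24 in control (SD, n = 3 each), so PRMT5_down was 1.51-fold higher, or 0.59 on the log2 scale (SE 0.14). This SE and those that follow are from limma without the replicate block. With the block the SE was 0.09. In Affymetrix naming the ending _s_at marks probes that match more than a single transcript, and these may come from different genes. The annotation lists PPARA alone for this probe set, and matches to other genes were not analysed. The next in brightness, 11724411_a_at, had 6.30, 6.18 and 6.23 in PRMT5_down, against 5.89, 5.75 and 5.55 in control. Its groups also did not overlap, and its difference was 0.51 (SE 0.11). The third, 11763524_a_at, had 5.59, 5.18 and 5.51 in PRMT5_down, against 4.98, 5.13 and 5.04 in control. It was above background on 5 of 6 arrays, and its difference of 0.38 (SE 0.13) came from replicate numbers 1 and 3, at 0.61 and 0.47, with 0.05 in number 2.

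**Figure D1:**
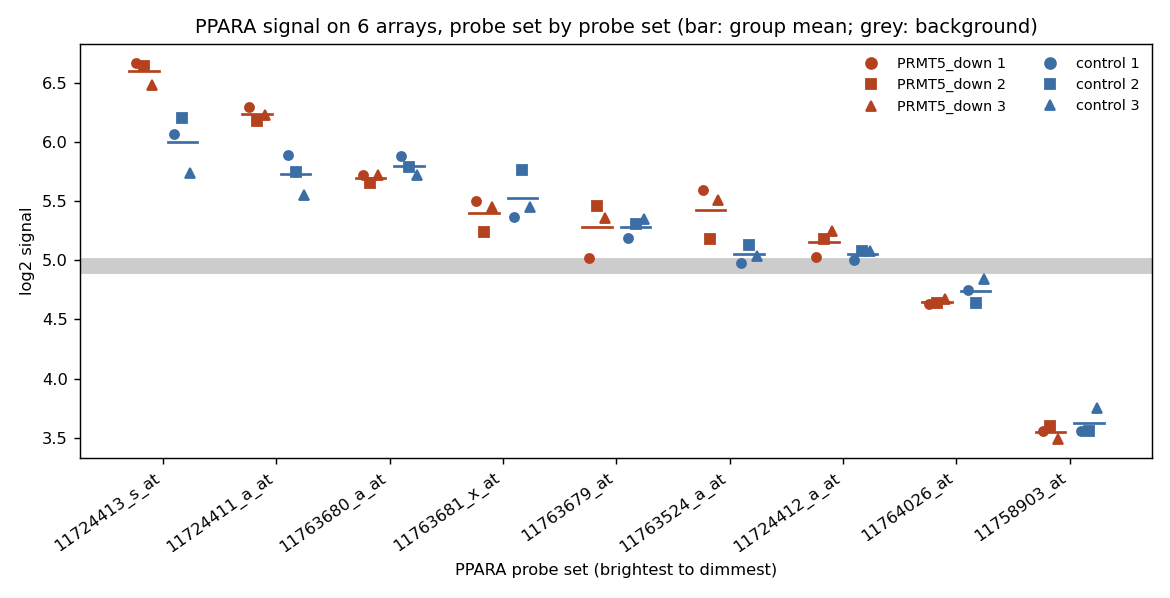
PPARA log2 signal (vertical axis) for each of its 9 probe sets, brightest at left, with PRMT5_down arrays in red left of control arrays in blue; bars are group means, shapes are replicate numbers and the grey band is the range of array backgrounds. The groups separate in 11724413_s_at, 11724411_a_at and 11763524_a_at, and they overlap in the other 6.

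The other PPARA probe sets did not follow these. The 3 that were designed on the same mRNA record, 11763680_a_at, 11763681_x_at and 11763679_at, were above background on all 6 arrays. The first of them, 11763680_a_at, had 5.72, 5.65 and 5.72 in PRMT5_down, against 5.88, 5.79 and 5.72 in control, a difference of -0.10 (SE 0.08). The second, 11763681_x_at, differed by -0.13 (SE 0.14), and within replicate numbers 1, 2 and 3 by 0.13, -0.52 and 0.00. The third, 11763679_at, differed by 0.00 (SE 0.14). Probe set 11724412_a_at, just above background, had 5.03, 5.18 and 5.25 in PRMT5_down, against 5.00, 5.08 and 5.08 in control, a difference of 0.10 (SE 0.09), and was higher in all 3 replicate numbers by small amounts. The last 2, 11764026_at and 11758903_at, were above background on no array and differed by -0.10 (SE 0.09) and -0.07 (SE 0.09). The dim 11758903_at was designed on the same transcript record as 11724411_a_at, whose difference was 0.51.

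Averaged over all 9 probe sets, PPARA had 5.34, 5.31 and 5.35 in PRMT5_down, against 5.19, 5.25 and 5.17 in control, a mean difference of 0.13. These values also set which probe sets had separate groups, so the means of both kinds follow from that split and are descriptions. The mean of the 3 probe sets whose groups did not overlap differed by 0.54, 0.31 and 0.63 in replicate numbers 1, 2 and 3. The mean of the other 6 differed by -0.05, -0.06 and -0.04. Which transcripts each probe set reads was not analysed here.

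Of the related receptors, PPARD had a clear signal in a single probe set and PPARG in none. PPARD probe set 11725171_at had 6.25, 6.02 and 6.08 in PRMT5_down, against 5.73, 6.02 and 6.37 in control. Its groups overlapped, and the replicate numbers disagreed in sign, at 0.52, 0.00 and -0.29, for a mean of 0.08 (SE 0.18). The other 2 PPARD probe sets were above background on no array and differed by -0.06 and 0.05. Both PPARG probe sets, with means of 3.77 and 2.89 in PRMT5_down and 3.80 and 3.07 in control, were above background on no array. PPARG, the receptor of fat cell formation, had no signal above background on these arrays.

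RXRA, the shared dimer partner, was well above background and close to level between the groups. Its brightest probe set, 11742844_a_at, had 7.96, 8.0 and 8.31 in PRMT5_down, against 7.85, 7.87 and 8.32 in control, a difference of 0.08 (SE 0.17). The second, 11742843_a_at, had 7.0, 6.50 and 6.49 in PRMT5_down, against 7.08, 6.50 and 6.52 in control, a difference of -0.04 (SE 0.22). Replicate number 3 was highest in the first and number 1 in the second, in both groups alike.

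**Figure D2:**
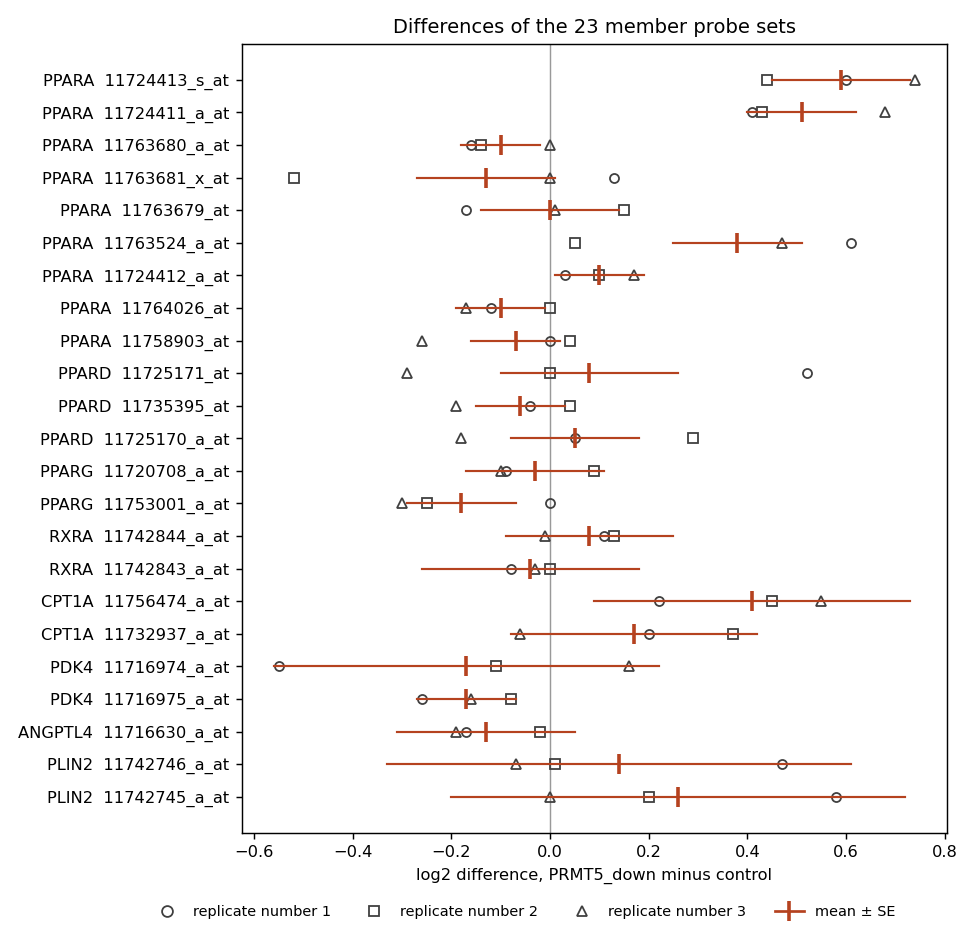
Log2 difference, PRMT5_down minus control (horizontal axis), for the 23 probe sets of the 8 genes; open shapes are replicate numbers 1 to 3 and the red mark is the mean with its SE from limma without a block. Differences of 0.5 or more on average are seen for 2 PPARA probe sets, and the range over all 23 is -0.18 to 0.59.

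The 4 target genes did not move one way. Among their brightest probe sets 2 had a positive mean difference, CPT1A and PLIN2, and 2 a negative one, PDK4 and ANGPTL4, and in all 4 the groups overlapped. CPT1A encodes the mitochondrial outer membrane enzyme that controls entry of long-chain fatty acids into oxidation. Its probe set 11756474_a_at had 8.46, 7.72 and 7.86 in PRMT5_down, against 8.24, 7.27 and 7.31 in control. The PRMT5_down array was the higher in each replicate number, by 0.22, 0.45 and 0.55, while control replicate 1 lay above PRMT5_down replicates 2 and 3. The mean difference was 0.41 (SE 0.32, and 0.09 with the replicate block), and it ranged from 0.18 without PRMT5_down replicate 1 to 0.72 without control replicate 1. Across all probe sets 12.5% were higher in all 3 replicate numbers. The second CPT1A probe set, 11732937_a_at, had 6.32, 5.74 and 5.68 in PRMT5_down, against 6.12, 5.37 and 5.74 in control, a difference of 0.17 (SE 0.25) with number 3 at -0.06.

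PLIN2 encodes the perilipin that coats lipid droplets in most cell types. Its probe set 11742746_a_at had 10.20, 8.60 and 9.41 in PRMT5_down, against 9.73, 8.59 and 9.48 in control. Number 1 was highest and number 2 lowest in both groups, and the difference of 0.14 (SE 0.47) came from number 1, at 0.47, with 0.01 and -0.07 in numbers 2 and 3. The second PLIN2 probe set, 11742745_a_at, repeated this order, with differences of 0.58, 0.20 and 0.00.

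ANGPTL4 encodes a secreted inhibitor of lipoprotein lipase. Its single probe set, 11716630_a_at, had 5.23, 5.52 and 5.71 in PRMT5_down, against 5.40, 5.54 and 5.90 in control. It was lower in all 3 replicate numbers, by amounts down to -0.19, with a mean of -0.13 (SE 0.18), where 14.3% of all probe sets were lower in all 3. PDK4 encodes the kinase that shuts off pyruvate dehydrogenase when fat is burned, and its signal was near or under background. Its brighter probe set, 11716974_a_at, had 4.61, 4.48 and 3.89 in PRMT5_down, against 5.16, 4.59 and 3.73 in control, above background on control replicate 1 alone. Its difference was -0.17 (SE 0.39). The dimmer one, 11716975_a_at, was above background on no array and differed by -0.17 (SE 0.10).

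**Figure D3:**
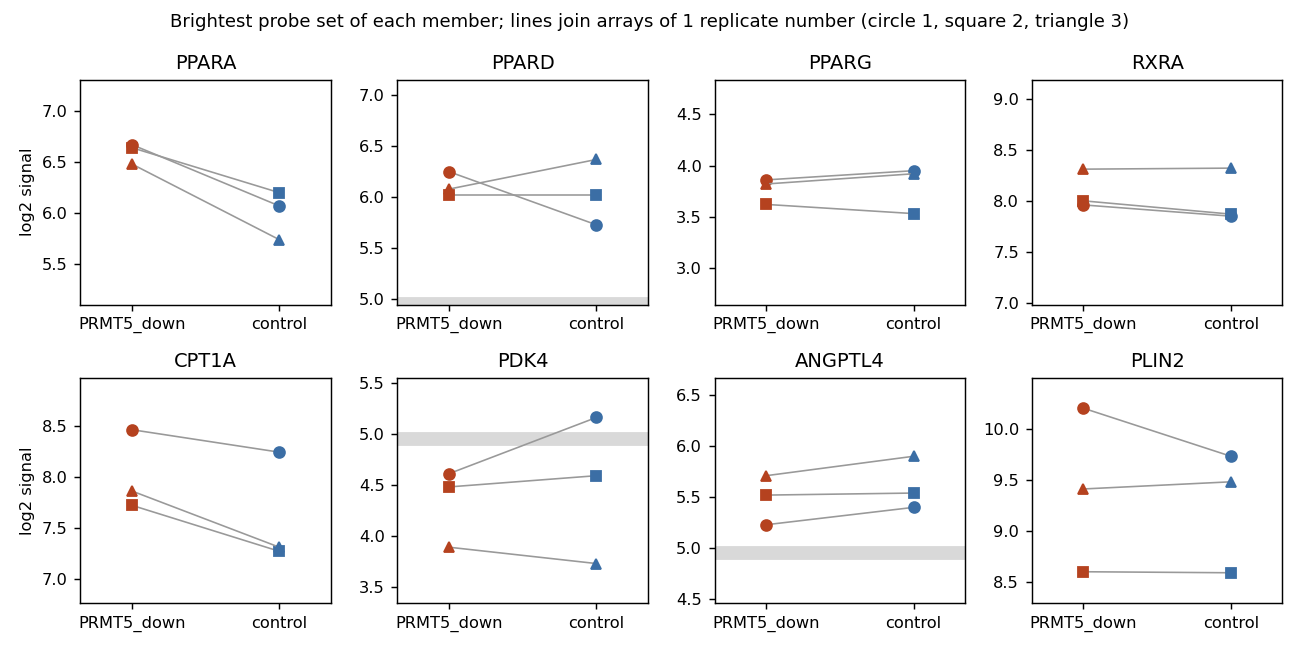
Log2 signal (vertical axis, each panel 2.2 units tall with its own centre) of the brightest probe set of each gene, PRMT5_down at left and control at right; lines join arrays of the same replicate number and the grey band is background. The PPARA lines all slope one way with the groups apart, the CPT1A lines slope the same way with the groups overlapping, and the PLIN2, RXRA and PDK4 arrays keep similar orders by replicate number on both sides.

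For RXRA and the targets, most of the spread over the 6 arrays lay between replicate numbers, except in the dimmer PDK4 probe set, at 47.1%. Replicate number held 27.0% to 41.5% of the variation of the PPARD probe sets. It held 94.4% and 90.7% of the variation of the PLIN2 probe sets, 93.5% and 99.1% for RXRA, 88.1% for ANGPTL4 and 76.1% and 84.3% for CPT1A, where the median of all probe sets was 68.1%. The group held 1.38% of the variation of the brightest PLIN2 probe set, 3.95% for RXRA, 8.78% for ANGPTL4 and 21.4% for CPT1A, where the median was 7.41%. In the PPARA probe sets 11724413_s_at and 11724411_a_at the group held 79.8% and 85.4%, on the contrast that chose the gene. What the arrays of a number share is not stated in the labels.

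**Figure D4:**
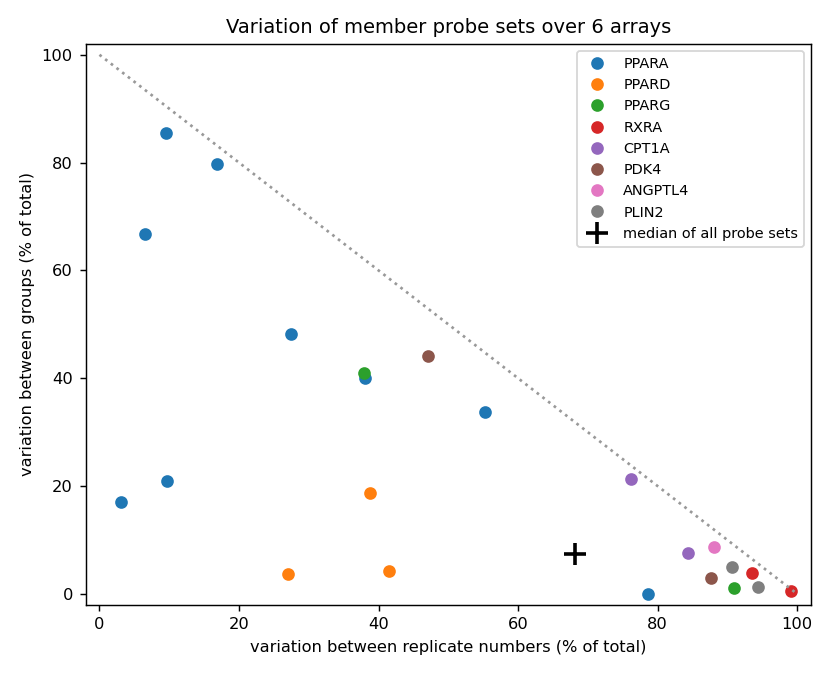
Share of each probe set's variation over the 6 arrays that lay between replicate numbers (horizontal axis, percent) and between the groups (vertical axis, percent); the cross is the median of all probe sets and the dotted line marks a sum of 100%. The 3 PPARA probe sets with separate groups sit at upper left, and both RXRA and both PLIN2 probe sets at lower right.

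Genes around the receptors were described in 11 lists, each gene by its brightest probe set. Of 158 genes listed, 140 were measured by a probe set of their own and 95 were above background on all 6 arrays; the other 18 were not analysed here. None passed limma at an adjusted p of 0.05, where 0 of 18132 genes did, and 0 passed with the replicate block. At an unadjusted p under 0.05 there was 1 of the 140, or 0.714%, against 0.822% of all genes, and with the block 16, or 11.4%, against 8.25%. The median log2 difference over the 140 was -0.01, and over all 18132 genes -0.017. PRMT5_down lay wholly above control in 2 of the 140, ABHD5 and ACACB, or 1.43%, against 1.26% of all genes, and wholly below in 0, against 2.66%. A positive difference, counted list by list in what follows, was seen for 43.3% of all genes.

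Among the coregulators and other RXR genes, 8 of 12 measured genes had a positive difference and 4 a negative one, with a median of 0.06, and 0 passed. Without control replicate 3, 5 of the 12 were positive. RXRB, another RXR receptor, had 8.40, 8.93 and 8.57 in PRMT5_down, against 8.58, 9.02 and 8.81 in control, a difference of -0.17 (SE 0.18). RXRG, above background on no array, differed by -0.28 (SE 0.14). LPIN1, a phosphatidate phosphatase that also acts as a PPARA coactivator, differed by 0.30 (SE 0.31). Of the other nuclear receptors that pair with RXR, 7 of 10 had a positive difference and 0 passed, with a median of 0.02. The oxysterol receptor gene NR1H3 differed by 0.20 (SE 0.16), the thyroid hormone receptor gene THRA by 0.13 (SE 0.19) and the dim retinoic acid receptor gene RARB by 0.05 (SE 0.08).

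The wider set of PPAR targets was split in sign. Of 30 measured, 14 had a positive and 16 a negative difference, with a median of -0.01, and 0 passed. ACADVL, the very long-chain acyl-CoA dehydrogenase of mitochondria, had a difference of -0.38 (SE 0.20), with -0.48, -0.11 and -0.54 in the 3 replicate numbers. The liver fatty acid binding protein gene FABP1 and the lipoprotein receptor gene VLDLR, both above background on no array, differed by -0.32 (SE 0.13) and -0.13 (SE 0.10). The fatty acid transporter gene CD36, singled out after its values were seen, had 9.86, 8.15 and 7.80 in PRMT5_down, against 9.06, 7.60 and 6.66 in control. It was higher in each replicate number, by 0.80, 0.55 and 1.14, with overlapping groups and a mean of 0.83 (SE 0.77, and 0.12 with the replicate block).

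The balance of signs among mitochondrial fatty acid oxidation genes turned when 1 array was left out. On all 6 arrays 7 of 21 measured had a positive difference and 12 a negative one, with a median of -0.04, and 0 passed. Without PRMT5_down replicate 3, 12 of the 21 were positive. Besides ACADVL, the carnitine palmitoyltransferase gene CPT1C, above background on 5 arrays, differed by -0.23 (SE 0.16) and the electron transfer flavoprotein gene ETFB by -0.18 (SE 0.15). The medians were 0.04, 0.05 and -0.20 in replicate numbers 1, 2 and 3, so the numbers differed in sign. In peroxisomes 4 of 14 had a positive difference and 10 a negative one, with a median of -0.04, and 0 passed. With the mean of each gene's probe sets, 2 of the 14 were positive, and with the lowest 30% of probe sets left out, 2 of 11. The acyl-CoA oxidase gene ACOX3 differed by -0.41 (SE 0.37), the dienoyl-CoA reductase gene DECR2 by -0.16 (SE 0.12) and the dim bifunctional enzyme gene EHHADH by -0.16 (SE 0.11).

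Lists of lipid handling were also split, and 0 genes of each passed. For uptake, binding and activation 11 of 20 had a positive difference, with a median of 0.01, and FABP5, an intracellular fatty acid carrier above background on 4 arrays, differed by -0.41 (SE 0.20), with -0.60, -0.23 and -0.41 in the 3 numbers. The fatty acid transport gene SLC27A1 in that list, above background on 3, differed by -0.25 (SE 0.16). With the replicate block, 6 genes of that list had an unadjusted limma p under 0.05, 3 of them higher and 3 lower. For lipid droplets and lipolysis 7 of 18 had a positive difference, with a median of -0.05, and without control replicate 1 it was 3 of 18. ABHD5, the coactivator of the lipase ATGL, differed by 0.30 (SE 0.12), with 0.19, 0.17 and 0.55 in the 3 numbers (limma adjusted p = 1, unadjusted 0.047). The diacylglycerol acyltransferase gene DGAT2 differed by -0.12 (SE 0.09) and the droplet coat gene PLIN4 by -0.09 (SE 0.08). For fatty acid synthesis 9 of 15 had a positive difference, with a median of 0.02, and without PRMT5_down replicate 2 it was 5 of 15. The acetyl-CoA carboxylase gene ACACB, above background on no array, differed by 0.16 (SE 0.08), and ACSS2 and MLXIPL, an acetate-activating enzyme and a glucose-responsive transcription factor, by -0.21 each (SE 0.14 and 0.16).

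Of the genes around PDK4 and ANGPTL4, and of the targets of hypoxia, 0 passed. Around pyruvate dehydrogenase 3 of 9 had a positive difference, with a median of -0.06. It was 5 of 9 without PRMT5_down replicate 3, control replicate 1 or control replicate 2, and 1 of 9 without control replicate 3. The sister kinase gene PDK2, above background on 3 arrays, differed by -0.09 (SE 0.09). The kinase gene PDK3, above background on 0, differed by -0.07 (SE 0.09), and the phosphatase gene PDP1, above it on 1, by 0.27 (SE 0.30). In the ANGPTL and lipoprotein lipase list 2 of 6 had a positive difference, with a median of -0.01 and 1 gene above background on all arrays. The count was 4 of 6 after quantile normalization and 1 of 6 with the mean of probe sets, without PRMT5_down replicate 3 or without control replicate 2. That gene, ANGPTL6, differed by 0.18 (SE 0.12), GPIHBP1, which anchors lipoprotein lipase and was above background on no array, by -0.11 (SE 0.09) and LMF1, which helps the lipase fold and was above it on 4, by -0.09 (SE 0.22). ANGPTL4, PLIN2 and PDK4 are also known to respond to low oxygen in many cells. Of 11 hypoxia targets 6 had a positive difference, with a median of 0.01. The glucose transporter gene SLC2A1 differed by 0.35 (SE 0.27), the collagen prolyl hydroxylase gene P4HA1 by 0.19 (SE 0.29) and the histone demethylase gene KDM3A by 0.17 (SE 0.22).

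**Figure D5:**
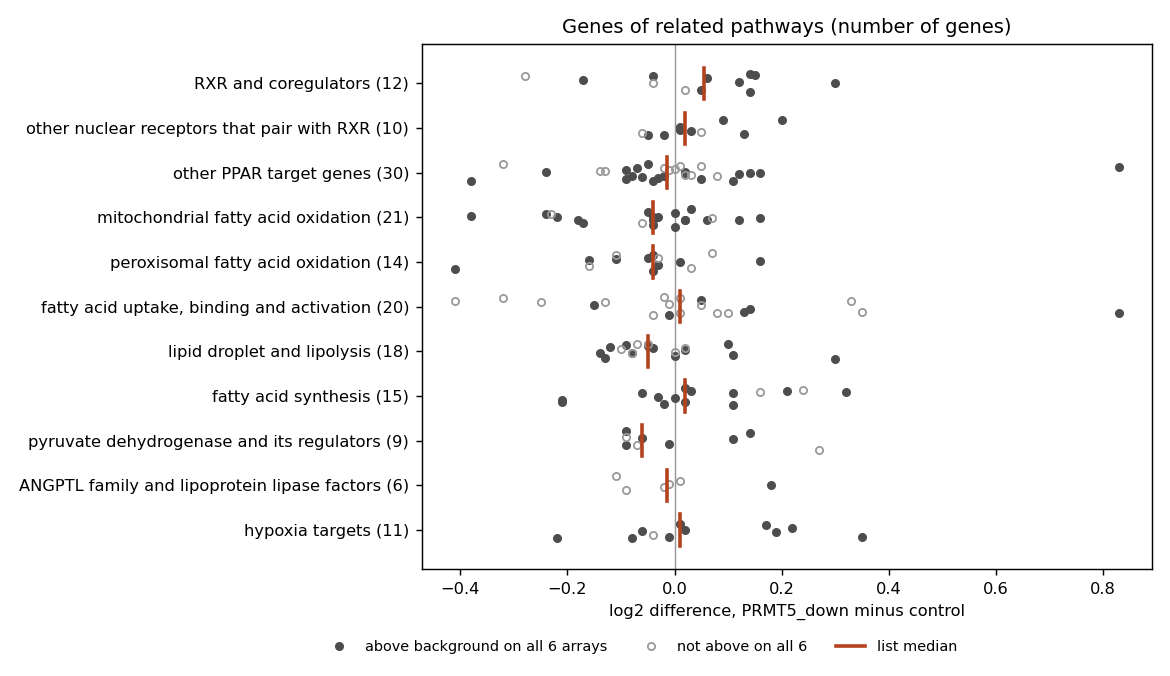
Log2 difference, PRMT5_down minus control (horizontal axis), of the genes in 11 lists around the receptors; filled points were above background on all 6 arrays, open ones were not, and red bars are list medians. All medians lie between -0.06 and 0.06, and CD36, at 0.83, stands farthest from 0.

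Genes with the pattern most like the brightest PPARA probe set were sought by Pearson's r over the 6 arrays among 10213 genes above background on all of them, as a description of likeness. PPARA was chosen on the group contrast, so genes that differ between the groups tend to rank at both ends. How high r over 6 arrays reaches by chance among 10213 genes was not tested. The 5 most alike were FBXL17 at 0.978, ZNF106 at 0.971, NFIX at 0.958, EIF4G2 at 0.957 and FAM13A at 0.955. Their log2 differences were smaller than that of PPARA, from 0.18 for NFIX to 0.34 for FAM13A. The 3 most opposite were SGCA at -0.982, IGHM at -0.978 and PARVG at -0.977, with differences of -0.21, -0.35 and -0.18. IGHM encodes the immunoglobulin mu heavy chain, EIF4G2 a translation initiation factor and NFIX a transcription factor. On the same scale CPT1A stood at 0.52, PLIN2 at -0.01, PPARD at -0.08, RXRA at -0.24 and ANGPTL4 at -0.61.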

How the data were processed

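RNA of 6 samples was hybridised to Affymetrix arrays. The deposited log2 signals come from RMA run by the authors, according to the submitters' processing notes, and the version is not given in the sources used here. This step equalises the arrays, which hides any shift common to most genes. Of 49372 probe sets, 79 controls were left out, 44988 had 1 gene symbol, 1832 several and 2473 were unnamed here. The members and lists were chosen with earlier results of these data known. The groups were compared in limma 3.58.1 (R 4.3.3), adjusted by Benjamini-Hochberg over all probe sets, or over genes by their brightest probe set, at a threshold of 0.05. List genes named are those with the 3 smallest p in the fit without the replicate block, which also gives the SEs unless the block is named. The fit was also run on simulated data as a self-test. Shifts between replicate numbers were set there without regard to those of these arrays, so it does not give the power of the fit here. Deviations from the group means correlated at 0.81, 0.71 and 0.78 between arrays of the same replicate number, which is a pairing read from the data and not the labels. The fit with that block is an alternative. The labels do not say that replicates were separate cultures. The p-values therefore cover only the spread among these arrays, which may be technical, and 3 arrays per group limit the precision. Alternatives were a replicate block, renewed quantile normalization, a filter on dim probe sets, other probe set rules, trend and robust variance and left-out arrays.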

Additional observations from a re-analysis of the deposited data

How the results depend on the processing

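The count of probe sets or genes called by limma was 0 in the planned fit and under all alternatives run: replicate block, quantile normalization again, lowest 30% left out, trend and robust, 1 or the mean of probe sets per gene, and each array left out. At an unadjusted p under 0.05 there were 466 as planned, 455 after quantile normalization, 185 with the lowest 30% left out (fewer tested), 623 with trend and robust, 4221 with the replicate block and 297 to 821 with 1 array left out. The block leaves the differences as they are and changed no call. The PPARA difference of 0.593 was 0.574 after quantile normalization, 0.462 to 0.692 with 1 array left out and 0.13 with the mean of its probe sets, 6 of which did not follow the brightest. The probe sets 11724411_a_at and 11763524_a_at, added after the data were seen, stayed within 0.417 to 0.587 and 0.295 to 0.5 with 1 array left out. With 1 array left out the sign turned for the brightest probe sets of PPARD (-0.078 to 0.242), PPARG (-0.168 to 0.042), RXRA (-0.033 to 0.23), PDK4 (-0.548 to 0.167), ANGPTL4 (-0.238 to 0.017) and PLIN2 (-0.262 to 0.538), and not for CPT1A (0.183 to 0.723). Of 132 counts of positive differences in the lists under alternatives, 14 moved by over 1.5 times, as given beside each list. Signals near background limit PDK4, PPARG, most probe sets of PPARD and several of PPARA. Of the 9 PPARA probe sets, 2 were above background on no array and 11763524_a_at was above it on 5. Probe set 11724412_a_at lay just above it, at 5.00 to 5.25.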

Other observations

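The genes next to PPARA on chromosome 22, looked at after its values were seen, were compared as a further description. Of the annotated genes within 200 kb, 8 were measured by a probe set of their own, and none passed limma (adjusted p = 1 for each). The nearest downstream, CDPF1, had 6.90, 6.79 and 6.45 in PRMT5_down, against 6.83, 6.95 and 6.83 in control, a difference of -0.16 (SE 0.13). TTC38 differed by -0.11 (SE 0.30), the cell cycle gene GTSE1 by 0.05 (SE 0.10), the tRNA-modifying enzyme gene TRMU by 0.05 (SE 0.19) and the cadherin gene CELSR1 by -0.04 (SE 0.10). The remaining WNT7B, PRR34 and PKDREJ were above background on no array and differed by 0.11, -0.10 and 0.12.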
